A study of Gorilla gorilla gorilla with 14 samples.

Results

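The apical polarity genes examined here were PROM1, PARD3, PARD3B, PARD6B, PARD6G, PRKCI, PRKCZ, CRB1, CRB2 and MPP7. Their chromatin accessibility was followed in 4 cell types of gorilla cerebral organoids, which are brain-like tissues grown in culture from stem cells. Regions of the deposited count table were taken when they carried a gorilla position and listed one of these 10 genes as the closest gene, which gave 76 regions of 9 genes out of 204249 regions in all. Regions listed within 1000 bp of their gene are called promoter regions (10 regions), and those farther away distal (66 regions). Both regions listed for PRKCZ, an atypical protein kinase C, lacked a gorilla position, so PRKCZ was not analysed here.

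The cells were sorted by flow cytometry from organoids of 1 gorilla induced pluripotent stem cell line, GC1, in week 8 of culture, and accessibility was read with ATAC-seq on bulk samples, an assay whose transposase inserts adapters into open DNA. The groups were BCL11B-positive neurons (N, n = 4), basal intermediate progenitors (bIP, n = 5), basal radial glia (bRG, n = 2) and apical radial glia (aRG, n = 3). The labels name no treatment and no engineered allele. The labels do not say whether the libraries of 1 group came from separate cultures. The p-values therefore measure the spread between libraries alone, and part of that spread may be technical.

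Apical radial glia are epithelial cells: they line the ventricle and keep a small apical membrane there, set off from the rest of the cell by adherens junctions. Intermediate progenitors and neurons give up that attachment as they move away, and basal radial glia keep a basal process but no contact with the ventricle. The apical domain is set up by 2 protein assemblies. In the Par complex the scaffold PARD3 and an adaptor of the PARD6 family bind an atypical protein kinase C (PRKCI or PRKCZ). This kinase phosphorylates and so excludes basolateral proteins. PARD3B is a scaffold related to PARD3. In the Crumbs complex a transmembrane protein (CRB1 or CRB2) holds scaffold proteins under the apical membrane, and MPP7 is a related scaffold of the membrane-associated guanylate kinase family. PROM1, also known as CD133, sits in the protrusions of the apical membrane of neural stem cells.

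Accessibility at the promoter regions of PROM1, CRB2, PARD3 and PARD3B had a common order. It was lowest in N, intermediate in bIP, and highest in bRG and aRG. The test over all 14 libraries did not tell bRG and aRG apart. With TMM scaling, bIP was called lower than bRG at PROM1 and CRB2 but not at PARD3 or PARD3B. The step between N and bIP depended on the scaling: with offsets that follow abundance it passed at CRB2 but not at PROM1, PARD3 or PARD3B, while N stayed lower than both radial glia types at all 4 genes. CRB1 was lower in N than in each other cell type, the adaptors PARD6B and PARD6G and the kinase PRKCI passed in no comparison with TMM scaling, and the region listed as the MPP7 promoter was open mainly in bIP. Distal regions were mixed within a gene: beside a promoter that was lower in N, 5 of 9 PARD3B and 6 of 17 CRB2 distal regions were higher in N than in aRG (39.5% of all distal regions were). At PARD3, 7 of 15 distal regions were higher in bIP than in aRG (25.5%), but only 2 were higher in bIP than in bRG (21.5%).

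Library totals over the 204249 regions ranged from 12834983 to 26660427 counts, and levels below are CPM, counts scaled to a common library total with TMM factors. The labels' library numbers form 2 runs of 7 libraries, called the first and second library series. Both bRG libraries and 1 of 3 aRG libraries belong to the second, and a series term stands in the model. Promoter markers of the sorted types followed the labels in part. For the 7 of 8 radial glia markers that have a promoter region, the summed level had a median of 120 CPM in N and 228 in bIP. It was 321 CPM in bRG and 410 in aRG. The sum of 7 neuron markers had medians of 250, 216, 82.2 and 76.8 CPM in the same order. Its range in N (192 to 298 CPM) overlapped that in bIP (187 to 307 CPM). For 5 of 6 intermediate progenitor markers the medians were 103, 194, 117 and 95.1 CPM. BCL11B, which names the neurons, did not set N apart at its promoter region, with 20.3 ± 3.80 CPM in N, 23.6 ± 3.03 in bIP, 14.2 ± 0.987 in bRG and 19.7 ± 3.50 in aRG. The basal radial glia list (5 of 6 genes) did not set bRG above aRG, with medians of 106 CPM in bRG and 115 CPM in aRG. Of 6 markers of choroid plexus and other epithelium, which also has apical membrane, 4 had a promoter region, and their sum ranged from 11.1 to 15.9 CPM in N, 11.5 to 16.6 in bIP, 19.6 to 21.2 in bRG and 16.3 to 25.5 in aRG. Between N and aRG 2 of the 4 were lower, as the polarity promoters were, and 1 was higher. OTX2 averaged 1.68 CPM in N and 7.24 in aRG, FOLR1 1.42 and 4.51, and CDH1, the one that was higher, 7.24 and 3.90. TTR and KRT8 had no promoter region, and the part that other epithelium has in the results was not tested. Mesenchyme markers (6 of 6) had medians of 37.7 CPM in N, 56.6 in bIP, 88.5 in bRG and 85.9 in aRG. In bulk samples, fewer cells with an open region and a region less open in each cell cannot be told apart.

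Counted over all 76 regions in either direction, 56 were called between N and aRG (66.4% of all regions tested were), 48 between N and bIP (55.2%), 50 between N and bRG (58.1%), 36 between bIP and aRG (44.9%) and 25 between bIP and bRG (36.5%), so the share of members called was near the background. Counted over the promoter regions, N was lower than aRG at 6 of 10 and higher at none, where 35.1% of all tested promoter regions were lower and 17.2% higher. Against bIP, N was lower at 7 and higher at none (background 22.9% lower and 14.3% higher), and against bRG lower at 6 and higher at none (21.8% and 16.6%). bIP was lower than aRG at 5 and higher at 1 (18.4% and 11.5%), and lower than bRG at 3 and higher at 1 (10.1% and 10.9%). The median log2 difference over the 10 was −0.89 for N minus aRG, against −0.26 over all promoter regions, and −0.54 for N minus bIP, against −0.13. For bIP minus aRG it was −0.32, against −0.15. Scaling matters to the level of all of these: the median of all regions for N minus aRG was 0.18 with TMM factors and 0.05 with DESeq2 size factors or offsets that follow abundance. DESeq2 size factors left every one of these promoter counts as it was. With offsets that follow abundance, N was lower than bIP at 4 and higher at 3 (18.7% and 43.7% of all promoter regions), lower than aRG at 6 and higher at 3 (26.1% and 38.8%), and lower than bRG at 6 and higher at 3 (23.3% and 36.3%). The 3 were PARD6B, PARD6G and PRKCI in each case. bIP was then lower than aRG at 5 and higher at 2 (26.6% and 15.3%), and lower than bRG at 5 and higher at 1 (18.9% and 13.7%).

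PROM1 was most open in radial glia. Its promoter region (chromosome 4, 16221696 to 16224047, gorGor6) measured 15.3, 17.8, 17.5 and 17.9 CPM in N, 23.5, 23.1, 19.8, 30.2 and 27.3 CPM in bIP, 47.2 and 44.9 CPM in bRG, and 44.3, 48.0 and 47.7 CPM in aRG. Every N library lay below every bIP library, and every bIP library below every radial glia library, while bRG and aRG overlapped. The log2 difference of N from aRG was −1.48 ± 0.16 (SE, edgeR quasi-likelihood test, Benjamini-Hochberg adjusted p = 1.8e-08), and that of bIP from aRG −0.94 ± 0.15 (adjusted p = 1.4e-05). N differed from bIP by −0.55 ± 0.15 (adjusted p = 0.0023), a call lost with offsets that follow abundance (−0.15, adjusted p = 0.137). Among the second series alone, where aRG has 1 library, bIP and aRG differed by −0.73 with an adjusted p of 0.084. Of the 6 distal regions of PROM1, 5 were lower in N than in aRG and none was higher (28.4% and 39.5% of all distal regions). The most covered of them lay 26034 bp from the gene. It held 7.31 ± 1.36 CPM in N, 10.5 ± 3.92 in bIP, 19.2 ± 0.549 in bRG and 16.7 ± 2.07 in aRG (SD). Its log2 difference of N from aRG was −1.31 ± 0.19 (adjusted p = 9.9e-07). The bIP libraries divided there by library series: bIP1 to bIP3 lay below bIP4 and bIP5 and overlapped N, and bIP5 lay above aRG1. The region at 15482 bp held 1.09 ± 0.463 CPM in N, 1.93 ± 0.129 in bIP, 4.57 ± 0.968 in bRG and 3.50 ± 1.01 in aRG, a difference of N from aRG of −1.70 ± 0.30 (adjusted p = 2.1e-05). Thus the distal regions of PROM1 that passed moved in the direction of its promoter.

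CRB2, the transmembrane Crumbs protein best known from early epithelia and the neural tube, had the steepest order among the promoters. Its main promoter region, listed at 560 bp (chromosome 9, 94121497 to 94123655), measured 13.5, 14.9, 14.7 and 16.1 CPM in N, 28.3, 27.6, 22.3, 36.0 and 36.6 CPM in bIP, 53.8 and 50.1 CPM in bRG, and 64.9, 67.1 and 54.8 CPM in aRG. None of the 4 cell types overlapped another, with bRG just under the lowest aRG library. N differed from aRG by −2.11 ± 0.18 (adjusted p = 2.6e-10), bIP from aRG by −1.08 ± 0.16 (adjusted p = 5.9e-06) and N from bIP by −1.04 ± 0.16 (adjusted p = 4.6e-06). The second CRB2 promoter region, listed at 0 bp and 334 bp wide (94120727 to 94121061), held 1.21, 2.65, 1.87 and 1.03 CPM in N, 5.90, 5.31, 3.40, 6.14 and 5.36 CPM in bIP, 9.50 and 10.3 CPM in bRG, and 12.6, 12.3 and 12.6 CPM in aRG. It had the same order, again with no overlap, and a larger difference of N from aRG, −2.93 ± 0.26 (adjusted p = 5.5e-10). bIP minus bRG was −0.68 ± 0.20 at the main region (adjusted p = 0.0085) and −0.90 ± 0.28 at the narrow one (adjusted p = 0.012). Both calls rest on 2 bRG libraries. The first was lost without bRG replicate 1 (adjusted p = 0.092), the second without bRG replicate 1 or 2 (0.053 and 0.093), and in the second series alone the bIP to aRG difference at the main region was −0.59 with an adjusted p of 0.175. Just outside the 1000 bp limit, the CRB2 region at 1824 bp held 2.26, 4.47, 5.81 and 6.41 CPM on average in N, bIP, bRG and aRG, where the region at 560 bp, just inside, held 14.8, 30.2, 52.0 and 62.3 CPM.

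CRB1, the Crumbs protein known for its role in the retina, did not share the intermediate level of bIP. Its promoter region (chromosome 1, 168005844 to 168007778) measured 16.6, 15.7, 16.4 and 16.8 CPM in N, 31.9, 29.3, 24.9, 38.6 and 34.2 CPM in bIP, 28.7 and 25.7 CPM in bRG, and 29.7, 30.4 and 25.9 CPM in aRG. The N libraries lay together below all others, and bIP overlapped both radial glia types. N was lower than bIP (−0.96 ± 0.15, adjusted p = 7.0e-06), bRG (−0.67 ± 0.20, adjusted p = 0.0058) and aRG (−0.83 ± 0.17, adjusted p = 0.00014), while bIP minus aRG was 0.13 with a 95% interval of −0.20 to 0.47. The call against bRG was lost without bRG replicate 1 (adjusted p = 0.073), and that against aRG in the second series alone (0.0895). At CRB1, 5 of 6 distal regions were lower in N than in aRG and none was higher. The most covered one, 8280 bp away (168014507 to 168016129), measured 4.17, 2.99, 8.17 and 10.4 CPM in N, 16.2, 14.3, 11.7, 28.6 and 21.9 CPM in bIP, 23.5 and 24.3 CPM in bRG, and 24.0, 24.7 and 22.1 CPM in aRG. Here every N library lay below every other library. The bIP libraries divided by library series, at 11.7 to 16.2 CPM in the first and 21.9 and 28.6 CPM in the second. The highest of them lay above all radial glia. Within the first series bIP minus aRG was −0.77 and N minus aRG −2.70. Within the second, with 1 aRG library, the same differences were 0.20 and −1.25. N minus aRG was −2.16 ± 0.24 (adjusted p = 2.3e-08) and N minus bIP −1.65 ± 0.21 (adjusted p = 4.0e-07). The region at 10186 bp behaved otherwise, since bIP stood near N: 1.25 ± 0.625 CPM in N, 1.79 ± 0.487 in bIP, 6.51 ± 2.13 in bRG and 6.29 ± 0.958 in aRG, with bIP minus aRG at −1.83 ± 0.28 (adjusted p = 5.1e-06) and N minus bIP at −0.54 (adjusted p = 0.13). Within the first series alone N minus bIP was −0.89 and passed (adjusted p = 0.014), and within the second it was −0.23.

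**Figure D1:**
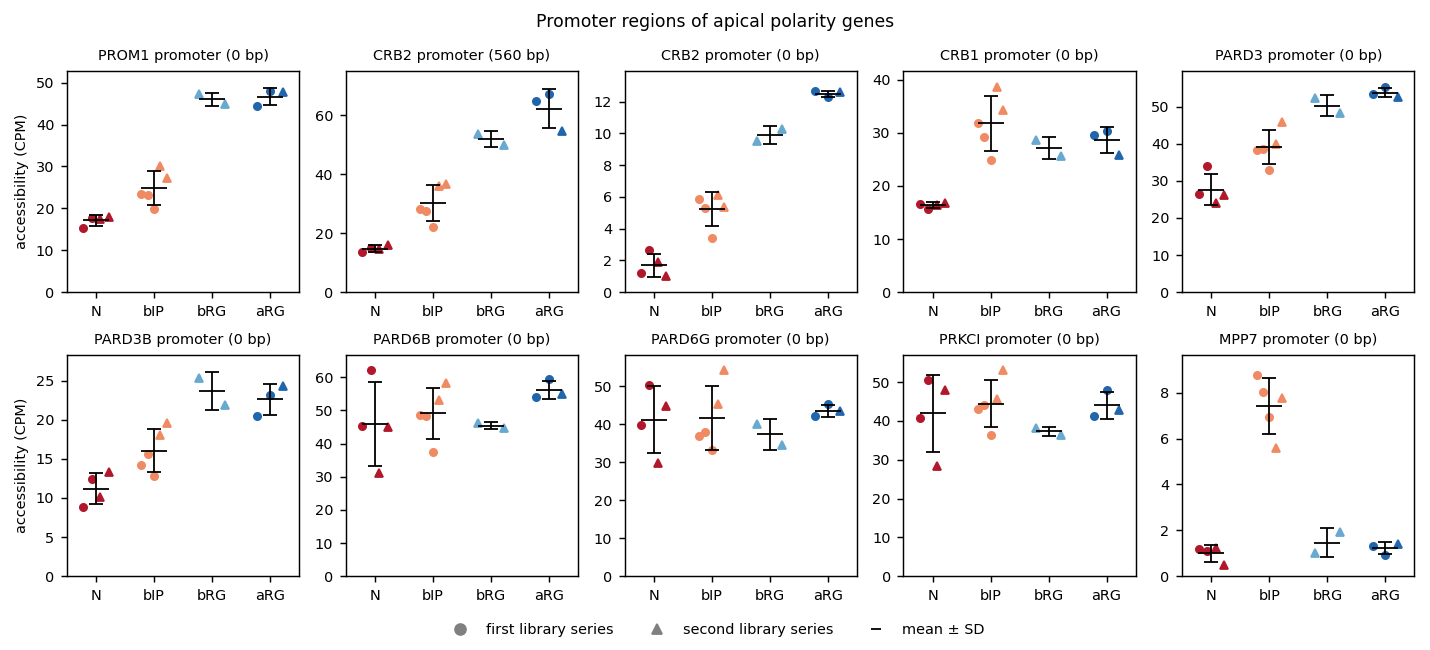
Accessibility in CPM (vertical axis, from 0, own scale per panel) of the 10 promoter regions in N, bIP, bRG and aRG. Circles are libraries of the first series, triangles those of the second, and bars the mean ± SD. N lies lowest at PROM1, both CRB2 regions, CRB1, PARD3 and PARD3B, and MPP7 is open in bIP. At PARD6B, PARD6G and PRKCI the N and bIP libraries overlap all others. There bRG lies below aRG, as it does at PARD3 and both CRB2 regions.

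The Par scaffolds followed PROM1 and CRB2 with smaller differences. PARD3, which marks the apical junctions and recruits the rest of the complex, measured 26.4, 33.9, 24.2 and 26.2 CPM in N at its promoter region (chromosome 10, 66311205 to 66314544), 38.4, 38.6, 33.0, 39.8 and 46.0 CPM in bIP, 52.2 and 48.3 CPM in bRG, and 53.5, 55.3 and 52.7 CPM in aRG. Only N2, at 33.9 CPM, reached into the bIP range, and both lay below all radial glia libraries. N minus aRG was −0.96 ± 0.17 (adjusted p = 2.0e-05). N minus bIP was −0.50 ± 0.15 (adjusted p = 0.0060; −0.14 and 0.088 with offsets that follow abundance). bIP minus aRG was −0.46 ± 0.16 (adjusted p = 0.021), a call lost without aRG replicate 1 (0.0641) or aRG replicate 3 (0.0637). PARD3B, a scaffold related to PARD3, measured 8.89, 12.4, 10.2 and 13.3 CPM in N at its promoter region (chromosome 2B, 91363115 to 91364844), 14.2, 15.6, 12.8, 18.0 and 19.6 CPM in bIP, 25.4 and 21.9 CPM in bRG, and 20.4, 23.1 and 24.3 CPM in aRG. Again N and bIP touched (13.3 CPM in N4, 12.8 CPM in bIP3) and both stayed under radial glia, whose 2 types overlapped. The differences were −1.06 ± 0.18 for N minus aRG (adjusted p = 1.1e-05), −0.52 ± 0.17 for bIP minus aRG (0.013) and −0.54 ± 0.16 for N minus bIP (0.0055, and 0.273 with offsets that follow abundance). With TMM scaling, bIP minus bRG passed at neither PARD3 nor PARD3B. In the second series alone bIP minus aRG kept its direction at both scaffolds and passed at neither, with 1 aRG library (−0.30, adjusted p = 0.577 at PARD3 and −0.37, 0.465 at PARD3B).

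PARD6B, PARD6G and PRKCI, adaptors and a kinase of the Par complex, passed in none of the 6 comparisons. At the promoter region of PARD6B (chromosome 20, 47995630 to 47997558) the values were 45.4, 62.1, 31.2 and 45.0 CPM in N, 48.6, 48.3, 37.4, 53.2 and 58.2 CPM in bIP, 46.2 and 44.7 CPM in bRG, and 54.0, 59.4 and 55.1 CPM in aRG. PARD6G (chromosome 18, 73546607 to 73549094) averaged 41.1 ± 8.76 CPM in N, 41.5 ± 8.40 in bIP, 37.3 ± 4.07 in bRG and 43.6 ± 1.58 in aRG. PRKCI (chromosome 3, 166637286 to 166639010) averaged 42.0 ± 9.90 CPM in N, 44.5 ± 5.98 in bIP, 37.3 ± 1.22 in bRG and 44.0 ± 3.53 in aRG. At all 3 genes the N libraries spread widely and overlapped bIP, bRG and aRG, while both bRG libraries lay below every aRG library. The latter is not particular to these genes. Over all promoter regions the median log2 difference of bRG from aRG was −0.19, and 23.6% were above 0. For N minus aRG the 95% intervals ran from −0.69 to 0.12 at PARD6B, −0.49 to 0.30 at PARD6G and −0.46 to 0.32 at PRKCI, so a 2-fold difference lay outside each. With offsets that follow abundance the same differences turned positive and passed, at 0.27, 0.45 and 0.48, so their direction depends on the scaling. Per kilobase of region, the aRG level was 29.1 CPM at PARD6B, 28.9 at the main CRB2 promoter, 25.5 at PRKCI, 19.8 at PROM1, 17.5 at PARD6G, 16.1 at PARD3, 14.8 at CRB1 and 13.1 at PARD3B, whereas in N it was 24.3 at PRKCI, 23.8 at PARD6B and 16.5 at PARD6G, followed by 8.48 at CRB1, 8.28 at PARD3, 7.28 at PROM1, 6.86 at CRB2 and 6.47 at PARD3B.

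MPP7 stood apart. The 1 region listed for it (chromosome 10, 72826643 to 72828535, listed at 0 bp) measured 1.17, 1.09, 1.25 and 0.469 CPM in N, 8.78, 8.03, 6.94, 5.57 and 7.78 CPM in bIP, 1.01 and 1.92 CPM in bRG, and 1.30, 0.936 and 1.42 CPM in aRG. The 5 bIP libraries lay above all others with no overlap, and the other 3 types shared 1 low range. bIP minus aRG was 2.59 ± 0.28 (adjusted p = 5.0e-08), bIP minus bRG 2.22 ± 0.35 (1.6e-05) and N minus bIP −2.88 ± 0.26 (1.7e-09). Even in bIP the region was weak for a promoter, at 3.92 CPM per kilobase. A second region on the same stretch of chromosome 10 (72806022 to 72807481) was looked up after these values were seen. It is listed at 0 bp from MPP7-DT, by its name the divergent transcript of MPP7, and held 34.9 ± 9.86 CPM in N, 41.7 ± 6.36 in bIP, 32.4 ± 0.677 in bRG and 45.0 ± 4.30 in aRG, with no comparison passed (bIP minus aRG −0.09, adjusted p = 0.752). Which of the 2 holds the MPP7 start used in these cells cannot be told from the table, so the bIP pattern is not assigned to MPP7 as a gene. Of the distal regions listed for MPP7-DT, those at 4006, 14233 and 15361 bp were also higher in bIP than in aRG (3.54, 3.43 and 1.08). The region at 10875 bp did not pass (25.5% of all distal regions were higher). N was lower than bIP at 4006 bp (−1.75) but higher at 14233 bp (0.72) and 15361 bp (1.98).

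**Figure D2:**
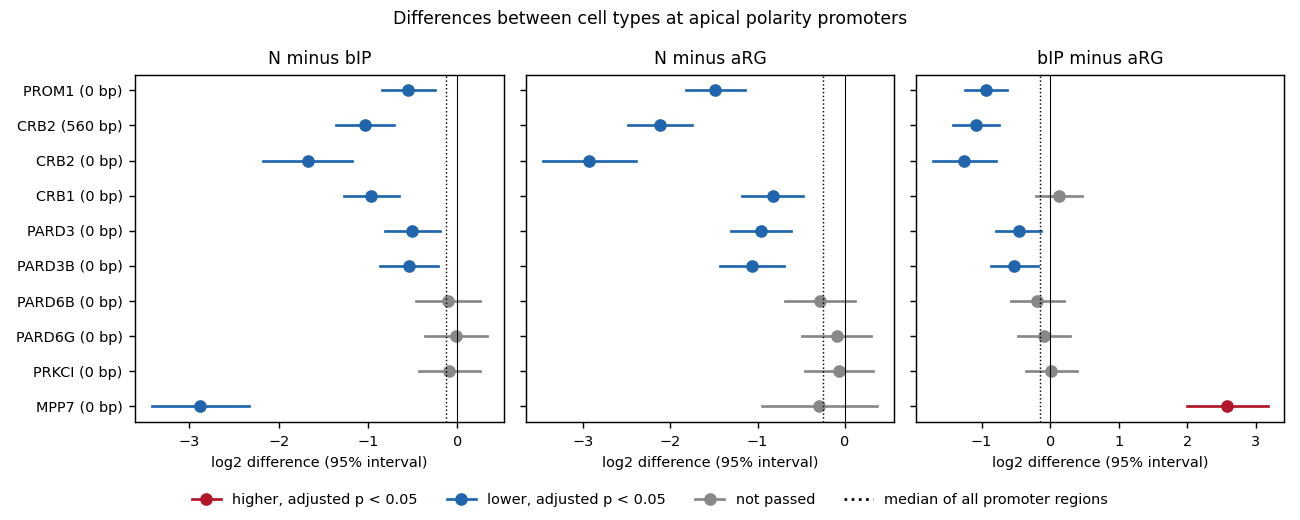
Log2 differences (horizontal axis) with 95% intervals at the 10 promoter regions for N minus bIP, N minus aRG and bIP minus aRG. Colour marks the call and the dotted line the median of all promoter regions (−0.13, −0.26 and −0.15); in N minus aRG 6 regions lie to the left of that line with intervals that exclude it.

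Between the radial glia types no member region passed in the model of all 14 libraries. Of 76 regions 0 were called for bRG minus aRG with edgeR's quasi-likelihood test, as for all regions tested (0%). Of the 76, 2 had an unadjusted p under 0.05, and DESeq2 called 0. The 0% background depends on the fit. With the 2 groups fitted alone, edgeR called 94 of 178460 regions higher and 1031 lower. Over all regions DESeq2 called 0 higher and 7 lower. Over the 10 promoter regions the median difference was −0.20, against −0.19 over all promoter regions. The difference ranged from −0.39 at CRB2 (95% interval −0.87 to 0.08) to 0.37 at MPP7 (−0.44 to 1.17). For PROM1 it was −0.16 (−0.59 to 0.28) and for PARD3 −0.10 (−0.55 to 0.35). The intervals at these 2 genes and at CRB2 lie within 2-fold, whereas that at MPP7 does not. Since both bRG libraries belong to the second series and only aRG replicate 3 does in aRG, this comparison leans on that library.

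The 66 distal regions were weaker than the promoters, with a median level of 1.75 CPM in N, 2.31 in bIP, 2.95 in bRG and 2.51 in aRG, and 2, 9, 7 and 8 of them reached 10 CPM. N was lower than aRG at 34 and higher at 16 (all distal regions: 28.4% lower and 39.5% higher), so the members' share lower was above that of all distal regions and their share higher below it. Against bIP, N was lower at 31 and higher at 10 (26.7% and 30.6% of all distal regions), and against bRG lower at 30 and higher at 14 (26.2% and 34.1%). bIP was lower than aRG at 17 and higher at 13 (21.1% and 25.5%), and lower than bRG at 14 and higher at 7 (16.7% and 21.5%). Over promoter and distal regions together, the 25 calls between bIP and bRG became 15 without either bRG library. The median difference of N from aRG was −0.56 over member distal regions and 0.30 over all distal regions. These distal shares and medians are with TMM factors alone, and the background depends on the scaling. Over all regions, N against aRG gave 74624 higher and 58712 lower with TMM factors. With offsets that follow abundance the comparison gave 69957 higher and 65988 lower. Taken by both steps, 9 regions were higher in bIP than in aRG and then lower in N than in bIP, 8 were lower at both steps, 8 were lower in bIP with no call between N and bIP, 14 were called lower only between N and bIP, 8 were called higher only between N and bIP, 3 were higher in bIP with no call between N and bIP, 1 was higher and 1 lower in bIP and then higher in N, and 14 passed at neither.

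**Figure D3:**
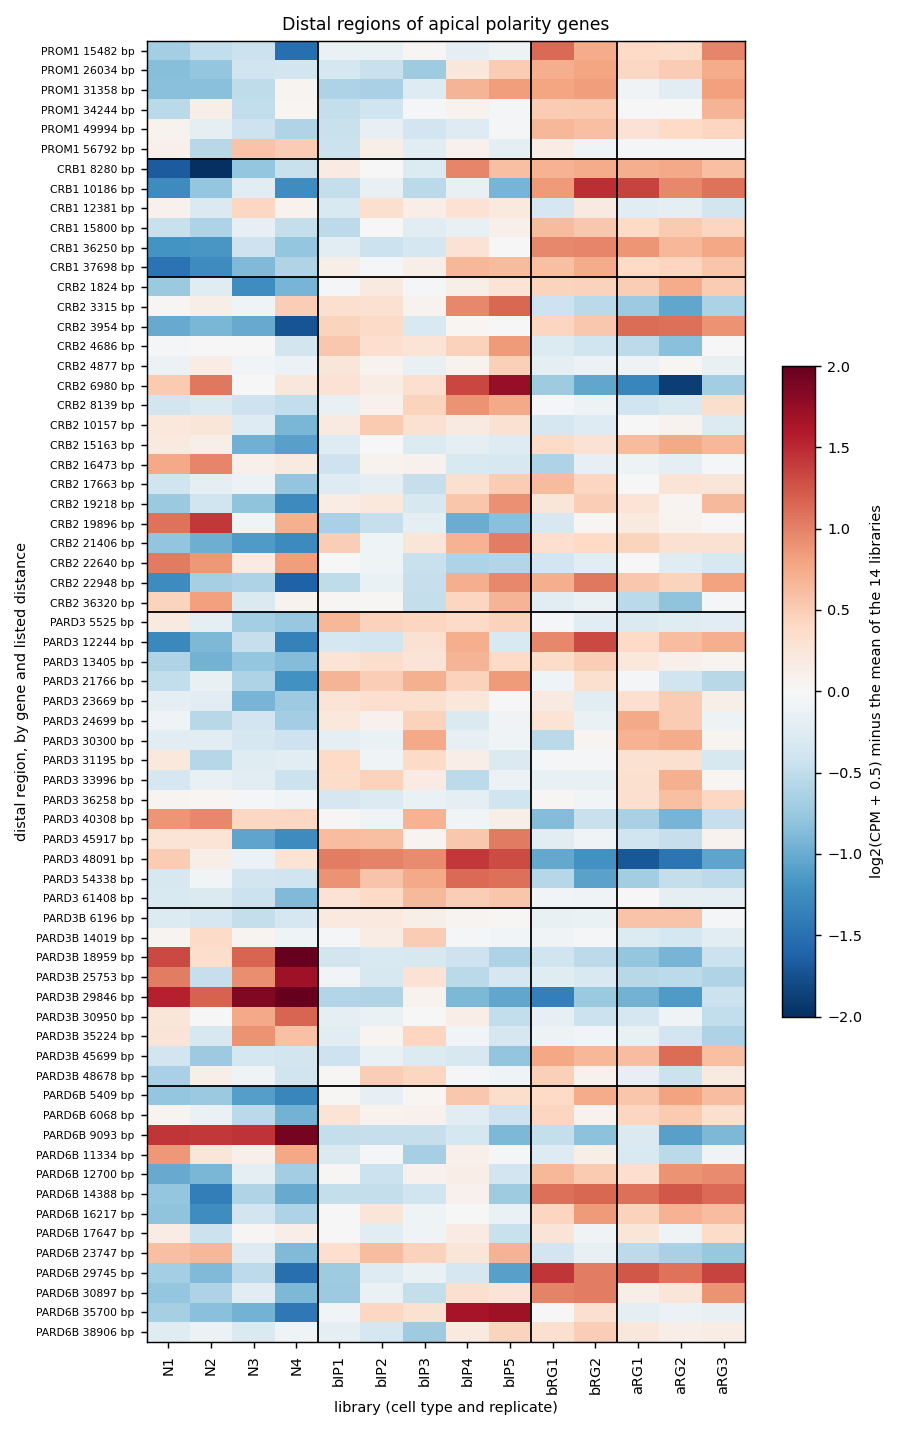
Log2(CPM + 0.5) of the 66 distal regions (rows, by gene and listed distance in bp) in the 14 libraries (columns, N to aRG), each minus the mean over the libraries. PROM1 and CRB1 rows are mostly high in bRG and aRG, several PARD3 rows are highest in bIP, and PARD3B and PARD6B hold rows high in N alone.

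Several distal regions of PARD3 were more open in bIP than in aRG. Among 15, 7 were higher and 1 lower in bIP than in aRG, 2 were higher and 1 lower in bIP than in bRG, and 10 were lower and 1 higher in N than in bIP. The strongest, 48091 bp from the listed start (chromosome 10, 66363847 to 66365355), measured 13.9, 10.4, 8.79 and 11.7 CPM in N, 19.9, 19.5, 18.9, 26.5 and 24.3 CPM in bIP, 4.45 and 3.84 CPM in bRG, and 2.61, 3.18 and 4.36 CPM in aRG. bIP was highest and N intermediate, without overlap between them or with radial glia. bIP minus aRG was 2.68 ± 0.22 (adjusted p = 1.1e-09), N minus aRG 1.72 ± 0.22 (2.0e-07) and N minus bIP −0.96 ± 0.18 (4.9e-05), whereas the PARD3 promoter was lower in bIP than in aRG. A smaller region at 54338 bp held 0.856 ± 0.157 CPM in N, 2.59 ± 0.492 in bIP, 0.444 ± 0.230 in bRG and 0.612 ± 0.0889 in aRG, so that it was open in bIP and close to the floor of 3 counts (0.114 to 0.208 CPM by library) in the radial glia. Its differences were 2.08 ± 0.31 for bIP minus aRG (3.5e-06) and −1.62 ± 0.26 for N minus bIP (8.7e-06). The region at 12244 bp ran the other way, at 1.02 ± 0.452 CPM in N, 2.59 ± 1.15 in bIP, 6.02 ± 1.15 in bRG and 3.92 ± 0.487 in aRG (N minus aRG −2.03 ± 0.32, adjusted p = 4.7e-06).

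PARD3B had distal regions open in neurons. Of 9, 5 were higher and 2 lower in N than in aRG, and none was higher in bIP than in aRG. The region at 29846 bp (chromosome 2B, 91332927 to 91334050) measured 6.31, 4.76, 7.88 and 19.6 CPM in N, 1.06, 1.04, 1.94, 0.751 and 0.628 CPM in bIP, 0.404 and 0.890 CPM in bRG, and 0.711, 0.561 and 1.23 CPM in aRG. All N libraries lay above all others, with N4 far above the other N libraries. N minus aRG was 3.38 ± 0.43 (adjusted p = 2.0e-07) and N minus bIP 3.04 ± 0.36 (8.5e-08). On the other side of the promoter the region at 18959 bp held 3.66, 1.63, 3.22 and 7.32 CPM in N and averaged 0.760 ± 0.107 CPM in bIP, 0.707 ± 0.0724 in bRG and 0.528 ± 0.186 in aRG (N minus aRG 2.78 ± 0.39, adjusted p = 7.6e-07). The reverse case was the region at 45699 bp, which held 0.684 ± 0.139 CPM in N, 0.751 ± 0.199 in bIP, 2.17 ± 0.151 in bRG and 2.31 ± 0.592 in aRG, with bIP already at the level of N (bIP minus aRG −1.61 ± 0.28, adjusted p = 3.8e-05).

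PARD6B joined a level promoter to distal regions that differed in both directions. Of 13, 8 were lower and 3 higher in N than in aRG. The region at 14388 bp (chromosome 20, 48011155 to 48012694) measured 3.90, 2.38, 4.47 and 3.24 CPM in N, 4.92, 4.92, 5.20, 7.51 and 4.11 CPM in bIP, 15.6 and 16.3 CPM in bRG, and 15.6, 17.2 and 16.0 CPM in aRG. Radial glia lay above all other libraries, and N and bIP overlapped (bIP minus aRG −1.62 ± 0.20, adjusted p = 2.7e-07; N minus aRG −2.24 ± 0.22, 2.9e-09). Its N minus bIP call (−0.61, adjusted p = 0.012) was lost without bIP replicate 4 (0.060). The region at 29745 bp had the same order, at 0.430 ± 0.249 CPM in N, 0.721 ± 0.305 in bIP, 3.47 ± 0.806 in bRG and 3.44 ± 0.361 in aRG (N minus aRG −2.95 ± 0.38, adjusted p = 2.3e-07). The opposite region, 9093 bp away (47986861 to 47987675), measured 5.18, 5.16, 5.28 and 7.51 CPM in N, 1.02, 1.04, 1.04, 1.15 and 0.628 CPM in bIP, 1.01 and 0.703 CPM in bRG, and 1.23, 0.499 and 0.637 CPM in aRG. Neurons were above every other library there, by 2.82 ± 0.31 against aRG (2.0e-08) and 2.57 ± 0.25 against bIP (6.0e-09). At 35700 bp the bIP libraries divided between the library series, with 1.40, 2.14 and 1.94 CPM in bIP1 to bIP3 and 5.70 and 5.89 CPM in bIP4 and bIP5, and its bIP minus aRG difference (1.23 ± 0.37, adjusted p = 0.0082) was lost without aRG replicate 3 (0.14) and within the first series (0.16).

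**Figure D4:**
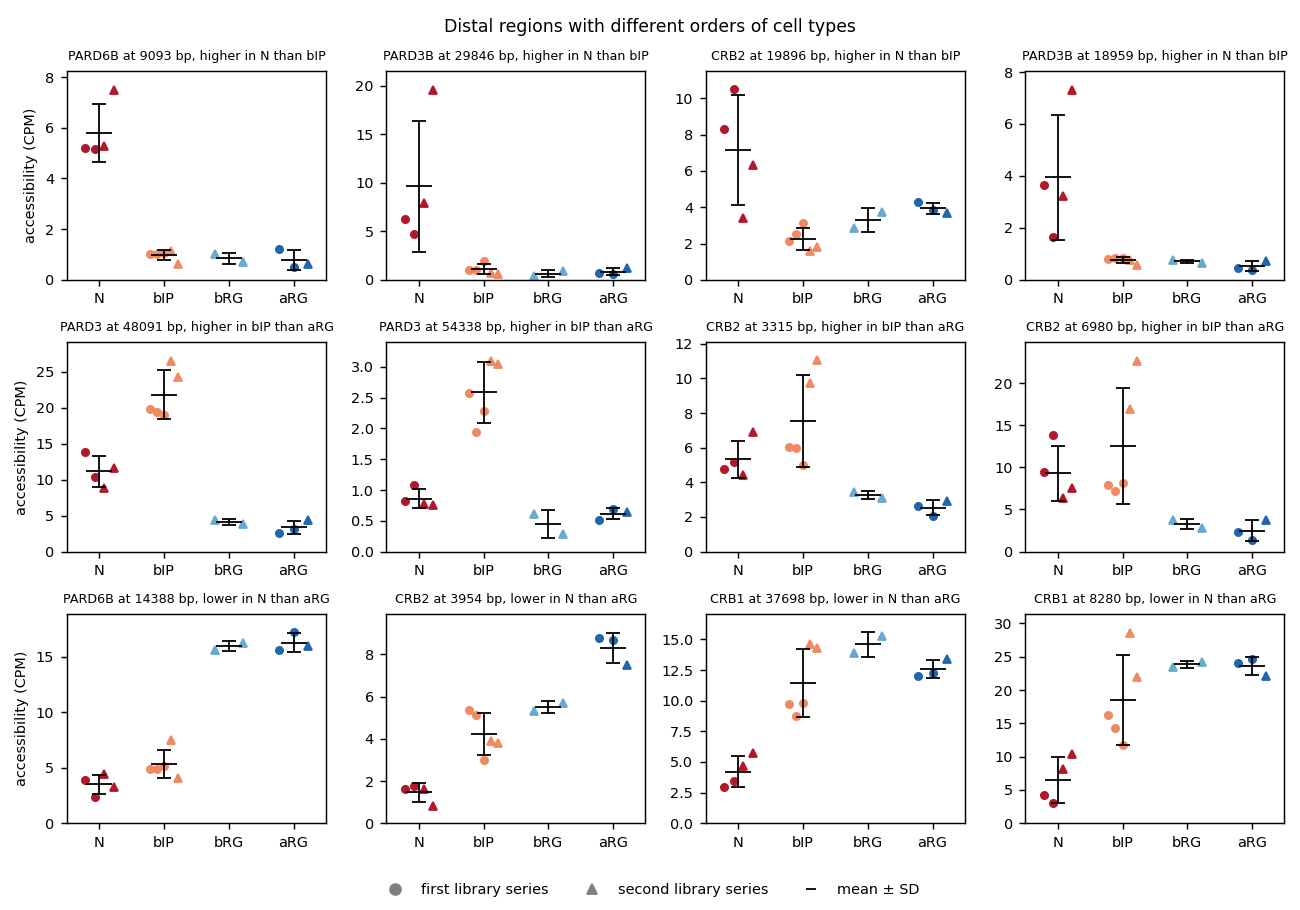
Accessibility in CPM (vertical axis, from 0, own scale per panel) of 12 distal regions in N, bIP, bRG and aRG, with libraries as points (circle, first series; triangle, second series) and mean ± SD as bars. Each row holds the 4 member regions with the smallest p in 1 direction: higher in N than in bIP (top), higher in bIP than in aRG (middle) and lower in N than in aRG (bottom). PARD6B at 9093 bp is high in N, PARD3 at 48091 bp is highest in bIP, and PARD6B at 14388 bp is high in bRG and aRG.

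CRB2 had neighbouring distal regions of opposite order near its start. The region at 3954 bp (chromosome 9, 94124907 to 94125312) held 1.64, 1.77, 1.63 and 0.798 CPM in N, 5.37, 5.11, 2.98, 3.89 and 3.82 CPM in bIP, 5.31 and 5.72 CPM in bRG, and 8.77, 8.67 and 7.50 CPM in aRG, the order of its promoter (N minus aRG −2.47 ± 0.24, adjusted p = 2.9e-09). Directly beside it, the region at 3315 bp (94124270 to 94124905) held 4.79, 5.16, 4.42 and 6.90 CPM in N, 6.05, 5.95, 5.00, 9.72 and 11.1 CPM in bIP, 3.44 and 3.09 CPM in bRG, and 2.65, 2.06 and 2.89 CPM in aRG. There radial glia lay below all N and bIP libraries, with differences from aRG of 1.49 ± 0.23 for bIP (6.1e-06) and 0.98 ± 0.24 for N (0.00074). The region at 6980 bp held 9.43, 13.8, 6.34 and 7.60 CPM in N, 7.91, 7.18, 8.19, 17.0 and 22.6 CPM in bIP, 3.74 and 2.86 CPM in bRG, and 2.29, 1.37 and 3.78 CPM in aRG, and was likewise higher than aRG in bIP (2.25 ± 0.35, 6.6e-06) and N (1.92 ± 0.35, 3.6e-05). Its bIP and N values depended on the series: N was higher than bIP in the first (0.57, adjusted p = 0.0071) and lower in the second (−1.51, 0.00011), which share no library. Farther away, the regions at 19896 bp and 22640 bp had their highest mean in N, at 7.14 ± 3.02 and 2.74 ± 0.773 CPM. The means were 2.25 ± 0.602 and 1.02 ± 0.303 CPM in bIP, 3.29 ± 0.648 and 1.04 ± 0.116 in bRG, and 3.94 ± 0.302 and 1.19 ± 0.205 in aRG. At 19896 bp library N3 lay below every aRG library. N minus bIP was 1.70 ± 0.22 at 19896 bp (3.1e-07) and 1.46 ± 0.24 at 22640 bp (1.3e-05). N minus aRG passed at both (0.89 and 1.27), and the call at 19896 bp was lost without aRG replicate 2 (0.074). That difference at 19896 bp was 1.21 within the first series and 0.40 within the second, which has 1 aRG library.

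**Figure D5:**
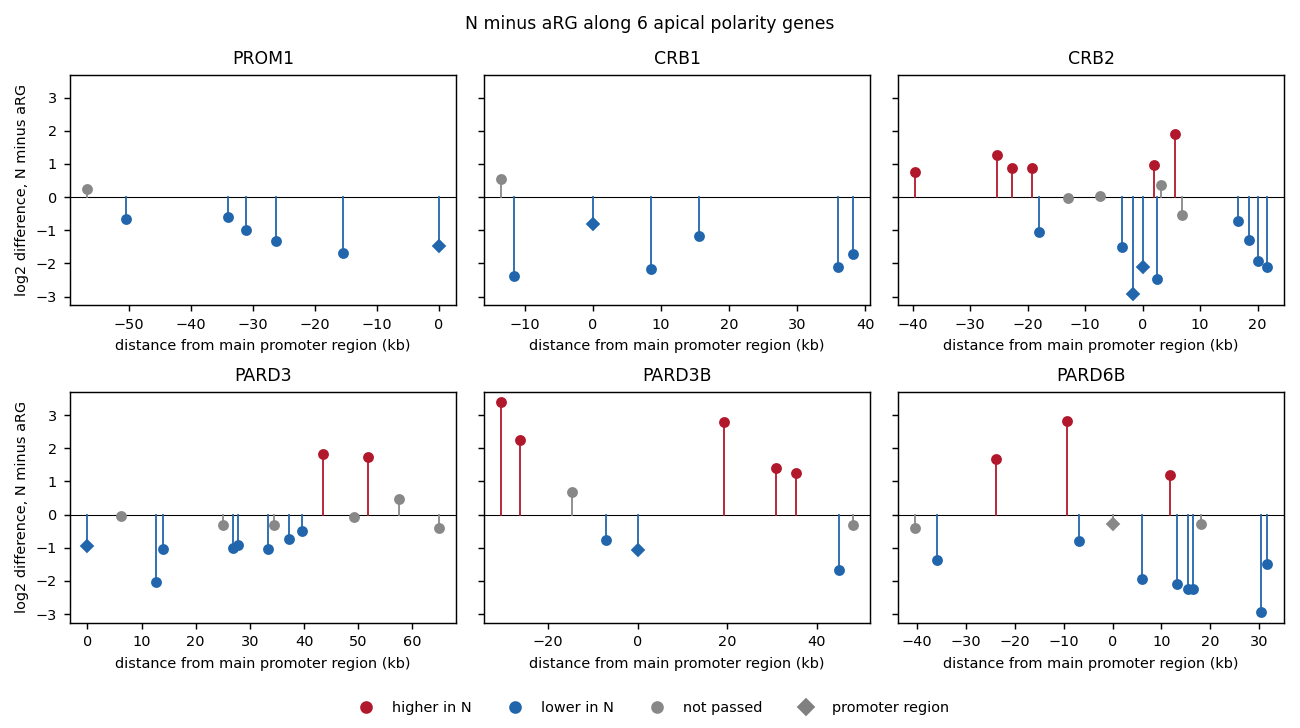
Log2 difference N minus aRG (vertical axis) of each region of 6 genes against its distance in kb from the gene's main promoter region along the gorilla chromosome (horizontal axis). Diamonds are promoter regions, red marks regions higher in N, blue lower and grey not passed; no PROM1 or CRB1 region is red, while CRB2, PARD3, PARD3B and PARD6B hold both colours.

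At 4 genes the distal regions were called in both directions. In N minus aRG, where 28.4% of all distal regions were lower and 39.5% higher, PROM1 and CRB1 had 5 of 6 distal regions lower and none higher, PARD6B had 8 lower and 3 higher, PARD3 7 and 2, CRB2 7 and 6, and PARD3B 2 and 5. The share higher at CRB2 (6 of 17) and the share lower at PARD3B (2 of 9) were not above those of all distal regions.

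The consensus peak sets, 1 per cell type, gave a second view of the same libraries, limited to 66 member regions because the sets hold no peak on chromosomes 2A and 2B. A peak touched 25 of them in N (37.9%), 31 in bIP (47.0%), 37 in bRG (56.1%) and 38 in aRG (57.6%). Of all regions off these chromosomes the sets touched 37.2% in N, 36.0% in bIP, 36.2% in bRG and 36.8% in aRG. Of the 9 promoter regions, 7 were touched in all 4 sets, the narrow CRB2 region in bRG and aRG alone, and the MPP7 region in bIP alone. Of the distal regions 10 were touched in bRG and aRG alone, among them PARD6B at 14388 bp and 29745 bp, CRB1 at 10186 bp and CRB2 at 3954 bp. Another 4 were touched in N alone, including PARD6B at 9093 bp and CRB2 at 22640 bp, 3 in bIP alone, including PARD3 at 54338 bp and PARD6B at 35700 bp, 9 in all sets and 13 in none. The sets have no replicates, so these counts carry no test. The share of each pattern over all distal regions was not computed, so whether a pattern is frequent among members cannot be told.

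Other polarity and apical junction genes were read at their main promoter regions, 33 measured of 51 listed. The counts of this list used TMM scaling and were not repeated with offsets that follow abundance. With those offsets N was lower than aRG at 26.1% of all promoter regions and higher at 38.8%. Between N and aRG, 20 were lower and 2 higher (35.3% and 16.3% of all main promoters), with a median difference of −0.50 against −0.26 over all main promoters. Among those lower were RDX (radixin, which ties membrane to actin), at 21.2 ± 3.81 CPM in N, 35.0 ± 7.25 in bIP, 49.4 ± 2.55 in bRG and 49.5 ± 0.792 in aRG (−1.25 ± 0.19), and FAT1, a giant protocadherin, at 43.7 ± 3.75, 66.5 ± 12.3, 92.1 ± 3.17 and 91.8 ± 7.54 CPM in the same cell types (−1.12 ± 0.16). JAM2, a junctional adhesion molecule, differed by −1.18 ± 0.17. Higher in N were F11R, another junctional adhesion molecule, at 24.5 ± 6.32 CPM in N, 13.7 ± 3.56 in bIP, 14.1 ± 0.0993 in bRG and 15.1 ± 1.43 in aRG (0.65 ± 0.21, adjusted p = 0.0077), and a weak region of AFDN, the junction protein afadin (0.75 ± 0.27, adjusted p = 0.019). Between N and bIP 11 were lower and 2 higher (F11R at 0.83 and LLGL2, a basolateral antagonist of the Par complex, at 0.47), where 22.3% and 13.7% of all main promoters were. Between N and bRG 8 were lower and 2 higher (21.5% and 15.8%). Between bIP and aRG 7 were lower and none higher (18.4% and 10.7%), among them FAT1 (−0.49 ± 0.15, adjusted p = 0.0084) and RDX (−0.52 ± 0.18, adjusted p = 0.019). None passed between bRG and aRG.

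Genes with the promoter profile most like a member's were named by the root mean square difference of centred log2 CPM over the 14 libraries, among 19304 genes, for the 4 members whose cell type means had an SD of at least 0.5 (log2). The libraries compared share their depth and series, and the measure is a description. Nearest to PROM1 were PYGL (0.106), PAPLN (0.108) and SDK2 (0.110), and nearest to PARD3B were CTDSP1 (0.0767), BOC (0.0832) and AC135983.2 (0.0952). For CRB2 they were HES1 (0.116), the Notch effector kept on in radial glia, GRAMD1B (0.117) and AP001527.2 (0.130). The HES1 promoter averaged 14.3 CPM in N, 29.7 in bIP, 49.8 in bRG and 59.8 in aRG, beside 14.8, 30.2, 52.0 and 62.3 CPM at CRB2. The region listed as the MPP7 promoter had no close neighbour, the nearest being AC097372.2 at 0.373.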

How the data were processed

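The authors deposited raw counts for every region in each library. The submitters' processing notes name bcl2fastq 2.20.0, MACS2, hg38 and panTro6. Which aligner and counting tool made the counts, the version of MACS2 and whether reads were shifted for the transposase cut is not given in the sources used here. Per the file headers each region also has a gorGor6 name, from which coordinates are taken as written (whether they count from 0 or 1 is not stated), a closest gene and a distance. For the members this distance fits 1 position per gene in the table's hg38 names within 2 bp. Exon and intron positions were not used here. The table has 218080 rows, of which 13823 without a gorilla position (all counts 0) and 8 repeats were left out. Each cell type has 1 deposited peak list, a consensus of its libraries by name, with a score, a fold enrichment (ratio) and −log10 q-values for each peak. Only position and −log10 q were used here. The sets name no build and were taken as gorGor6, since peaks touched 63.4% of regions as deposited, against 11.6% when moved by 50 kb.

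All regions past filterByExpr (200931) were fitted with edgeR 4.0.16 in R 4.3.3: TMM scaling, quasi-likelihood, 1 mean per cell type and a library series term over 14 libraries (9 residual degrees of freedom), with Benjamini-Hochberg adjustment over all regions and a threshold of 0.05. All 76 member regions passed the filter. Differences are log2 with standard errors and come from the model, so they need not equal ratios of means. Alternatives covered the test (DESeq2 1.42.0), scaling, filter, series term, replicate block, samples and peak overlap. In the stricter filter a region needed at least 10 CPM in 2 libraries. Depth ranged from 12834983 to 26660427 counts, so that 3 counts in a library equal 0.114 to 0.208 CPM, which covers counting error only, since amplified reads with no molecular identifier need not be separate molecules.

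Named regions were every member promoter, each gene's most covered distal region, and in each comparison the 5 distal regions with the smallest p in each direction. PROM1 at 15482 bp and PARD3 at 12244 bp were chosen after their values were seen. Named genes of the polarity list came from the 3 with the smallest p in each direction, and 1 result of that list is not reported here. Members and lists were chosen with earlier results of these data known.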

Additional observations from a re-analysis of the deposited data

Results flagged for a closer look

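Of 76 groups of 4 or 5 libraries at the named regions, 8 had 1 library far from the rest, where chance gives about 1 in 20. At the PROM1 promoter N1 stood at 15.3 CPM, with the other N libraries at 17.5 to 17.9 CPM. At PARD6B 9093 bp N4 stood at 7.51 CPM (others 5.16 to 5.28 CPM) and bIP5 at 0.628 CPM (others 1.02 to 1.15 CPM). At CRB2 N4 was lowest at 3954 bp, with 0.798 CPM against 1.63 to 1.77 CPM, and at 4686 bp, with 1.92 CPM against 2.53 to 2.65 CPM. At PARD3 bIP4 was highest at 13405 bp, with 9.19 CPM against 6.73 to 7.44 CPM, and bIP3 at 40308 bp, with 2.78 CPM against 1.42 to 1.69 CPM. At PARD3B 45699 bp N2 stood at 0.476 CPM and the other N libraries at 0.741 to 0.769 CPM. Each library lay on the same side of the other cell types as the rest of its group at the PROM1 promoter, at PARD6B 9093 bp in N and at CRB2 3954 bp.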

How the results depend on the processing

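The counts of member regions called were 56 for N minus aRG, 48 for N minus bIP, 50 for N minus bRG, 36 for bIP minus aRG, 25 for bIP minus bRG and 0 for bRG minus aRG. Leaving out 1 library at a time gave 52 to 57, 44 to 52, 42 to 53, 30 to 43, 15 to 30 and 0 to 0. With at least 10 CPM in 2 libraries, which kept 21 member regions, they were 15, 12, 17, 13 and 12 for the first 5, because fewer regions were tested. Within the second series bIP minus aRG gave 16, 50% of them higher, against 39% in the full model. Replicate numbers were not taken as pairs, since the correlation of deviations over 16 same-numbered pairs ran from −0.232 to 0.272 and was above 0.1 in 7. These were 7 of the 8 pairs within 1 library series and 0 of the 8 across series. Of the libraries that share numbers, 2 of 4 N libraries correlated best with their own number among bIP and 2 of 3 among aRG. So did 3 of 3 aRG libraries and 2 of 4 bIP libraries among N. Between bIP and aRG, 0 of 3 bIP libraries and 2 of 3 aRG libraries did. These matches are a mixed hint from the data and not from the design. A replicate block beside the series term left 2 calls for bIP minus bRG and 16 for N minus bRG. With it the narrow CRB2 promoter region turned to 0.28 for bIP minus bRG. Offsets that follow abundance turned N minus aRG to 0.27 at PARD6B, 0.45 at PARD6G and 0.48 at PRKCI, N minus bIP to 0.22, 0.33 and 0.25, and N minus bRG at PARD6B to 0.25. The 10 CPM filter turned N minus bIP to 0.26 at PARD6G and 0.19 at PRKCI, and N minus aRG at PRKCI to 0.19. At CRB2 36320 bp N minus aRG was −0.069 and N minus bIP −0.68 in the second series, and at 6980 bp N minus bIP was 0.57 in the first. Causes were not tested. Peaks at or above the median −log10 q of their set touched 25 member regions in aRG, against 38 for all peaks. With a promoter limit of 500 or 2000 bp, 9 or 11 member regions were promoters. Of the named calls 21 of 31 for N minus aRG, 18 of 27 for N minus bIP, 11 of 24 for bIP minus aRG, 12 of 29 for N minus bRG and 2 of 18 for bIP minus bRG held in every alternative. With 2 bRG and 3 aRG libraries, the interval of bRG minus aRG at the weak MPP7 region reached past 2-fold.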
